A study of Mus musculus with 4 samples.

Results

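Transcripts of 8 genes of the AP-1 transcription factor group were followed through the cell compartments of adult mouse epidermis: Fos, Fosb, Fosl1, Fosl2, Jun, Junb, Jund and Atf3. The genes were taken by name as members of the group, and all 8 of the 32285 genes listed in the deposited matrices were detected in each of the 4 libraries. Mice of the genotype DNp63fl/fl served as controls, and experimental mice were DNp63fl/fl;K14-CreT2, in which tamoxifen activates Cre recombinase under the keratin 14 promoter of basal keratinocytes and deletes ΔNp63, the p63 isoform that maintains these cells. Both genotypes received 200 mg/kg tamoxifen daily for 5 days by gavage, so the controls carry the floxed alleles and the drug but no Cre. Epidermis was collected 1 day or 1 week after ablation from mice aged 2 to 17 months, and 1 single-cell library was made per group (1-day control, 1-day experimental, 1-week control, 1-week experimental). Skin was floated on 0.25% trypsin overnight at 4 °C or for 2 h at 37 °C, and the labels do not say which was used for which library, how many mice were pooled, or their ages. With 1 library per group there is no replicate error and no test: every interval below covers counting error only, and animal, digestion, capture run and genotype cannot be told apart.

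AP-1 is a dimer of basic leucine zipper proteins. Fos, FosB, Fra-1 (encoded by Fosl1) and Fra-2 (Fosl2) need a partner from the Jun family, whereas Jun, JunB and JunD can also pair with each other, and ATF3 is a stress-induced relative that pairs with Jun proteins. Fos, Fosb, Jun, Junb and Atf3 are immediate early genes, switched on within minutes by growth factors, wounding or cell stress, and enzymatic release of cells from tissue is a well-known trigger. In epidermis AP-1 sites lie upstream of many differentiation genes, and loss of JunB in keratinocytes is known to lead to inflammation.

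The members lie on 7 chromosomes of mouse build GRCm38 (GENCODE M21 annotation), all as protein-coding genes. Fos is at chr12:85473890-85477273 on the plus strand, Fosb at chr7:19302696-19310051 on the minus strand, Fosl1 at chr19:5447547-5455946 on the plus strand and Fosl2 at chr5:32135801-32157842 on the plus strand. Jun is at chr4:95049034-95052222 on the minus strand, Junb at chr8:84974484-84978718 on the minus strand, Jund at chr8:70698949-70700616 on the plus strand and Atf3 at chr1:191170296-191218039 on the minus strand. Promoter windows of 7 of the 8 members were found in RefSeq (GRCm38.p6), Fosl1 being the member without a match. The 250 bases before the start site of Fos, Jun and Atf3 are printed 5′ to 3′ on the gene's strand. They were chosen as 3 of the 4 members highest in bulge-like cells of every library, among compartments with at least 50 cells. The Atf3 window precedes the start given by RefSeq, which lies inside the longer gene span of the annotation above. Capitals mark TGACG (the core of a cyclic AMP response element) in Fos, TGACATCA (the AP-1 and ATF element described for Jun) in Jun, and TTACGTCA in Atf3.
Fos, chr12:85473640-85473889, plus strand: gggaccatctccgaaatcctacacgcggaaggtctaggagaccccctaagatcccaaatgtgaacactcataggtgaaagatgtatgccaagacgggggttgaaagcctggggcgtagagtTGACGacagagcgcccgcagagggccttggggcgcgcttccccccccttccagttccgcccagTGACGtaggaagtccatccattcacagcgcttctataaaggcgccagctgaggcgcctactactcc
Jun, chr4:95052223-95052472, minus strand: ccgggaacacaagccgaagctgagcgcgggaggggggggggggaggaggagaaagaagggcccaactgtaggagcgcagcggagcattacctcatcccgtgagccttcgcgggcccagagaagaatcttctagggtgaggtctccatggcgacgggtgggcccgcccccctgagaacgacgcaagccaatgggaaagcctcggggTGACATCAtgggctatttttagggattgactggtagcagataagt
Atf3, chr1:191183334-191183583, minus strand: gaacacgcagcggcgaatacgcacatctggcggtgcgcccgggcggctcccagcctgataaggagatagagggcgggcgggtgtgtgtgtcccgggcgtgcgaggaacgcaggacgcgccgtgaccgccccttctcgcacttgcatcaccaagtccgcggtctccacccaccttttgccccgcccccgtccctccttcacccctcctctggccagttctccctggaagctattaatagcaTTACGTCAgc
In Fos, TGACG stood 129 to 125 and again 66 to 62 bases before the start, upstream of the TATAAA at 33 to 28. In Jun, TGACATCA stood 45 to 38 bases before the start, and in Atf3, TTACGTCA stood 10 to 3 bases before it. Searched on both strands over 32851 promoter windows of the same length, TGACG (or CGTCA, a match that TGACGTCA and TTACGTCA also contain) was in 17.8%, TGACATCA in 2.93%, TTACGTCA in 0.447% and TATAAA in 12.4%. Of the 7 member windows 4 held TGACG, and 0 held TGACTCA (4.46% of all windows) or TGACGTCA (1.55%). A match describes the letters of the window and shows no binding.

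The libraries held 33552 (1-day control), 32212 (1-day experimental), 25039 (1-week control) and 18413 (1-week experimental) barcodes, with 68191870 to 179736563 gene UMIs, where a UMI is a molecular tag counted once per captured RNA. Medians were 4209.5, 3488, 1298 and 1617 UMIs per barcode in that order. A 3′ tag kit was used for the earlier time point and a 5′ kit for the later, so levels were not compared between time points, and tag counts were not compared between genes. Barcode sequences shared by libraries numbered 299 at 1 day (0.93% of the smaller library) and 661 at 1 week (3.59%). Both 1-day libraries held almost no Xist (0.036 and 0.051 CPM, UMIs scaled to a total of 1000000) beside 94.6 and 99.8 CPM of the Y-linked Ddx3y, against a label that gives both sexes, while the 1-week libraries held cells of both sexes. Trp63, which encodes all p63 isoforms, was 404 CPM in control and 127 in experimental keratinocytes at 1 day and 450 and 161 at 1 week; the 3′ tags of the 1-day libraries lie outside the first exon that is particular to ΔNp63, so there they do not check the deletion itself.

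Cells were clustered without the 8 members and named from marker genes, each name ending in "-like"; clusters without a fitting marker set were called by their leading gene. Compared at 1 day were 14 compartments with at least 50 cells in both libraries: basal-like (4943 control and 536 experimental cells), spinous-like (5009 and 964), granular-like (367 and 1450), bulge-like (4084 and 2477), upper follicle-like (1924 and 1531), sebaceous-like (550 and 521), cycling (868 and 912), Fst-led (2257 and 1620), Ccl2-led (282 and 201), Krt6b-led (118 and 453), Langerhans-like (382 and 460), T cell-like (753 and 406), fibroblast-like (469 and 208) and melanocyte-like (144 and 56). Compared at 1 week were 9: bulge-like (939 and 842), upper follicle-like (507 and 543), sebaceous-like (173 and 368), cycling (271 and 336), Fst-led (697 and 369), Langerhans-like (121 and 72), T cell-like (222 and 116), fibroblast-like (321 and 199) and endothelial-like (109 and 85). Basal-like cells (2050 control, 17 experimental) and spinous-like cells (1141 and 9) were too few in the 1-week experimental library to be compared. Granular-like (28 and 179) and Krt6b-led cells (0 and 306) were too few in the 1-week control library. Krt8-led and Slpi-led clusters had at most 9 control cells and were not compared; sums called keratinocytes below hold all named keratinocyte compartments and the Slpi-led cells, and at 1 week 98 control keratinocytes of a cluster with no name, but not the Krt8-led cells. Levels are CPM of the summed UMIs of a compartment, with exact Poisson 95% intervals.

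**Figure D1:**
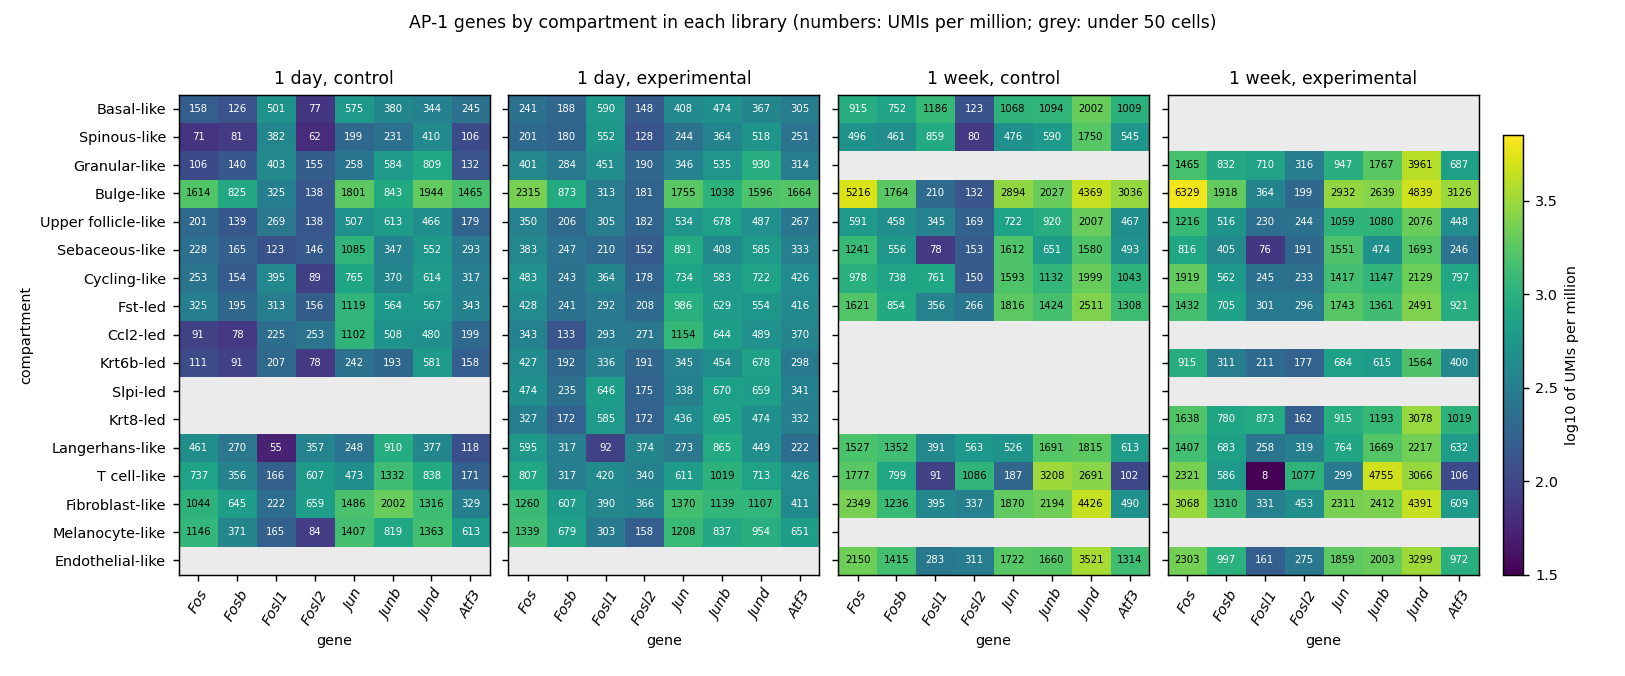
Levels (CPM) of the 8 genes (columns) in each compartment (rows) of the 4 libraries; colour is on a log10 scale, the number in each cell is the level, and grey marks compartments with under 50 cells. The bulge-like row is the brightest for Fos, with 1614 and 2315 at 1 day and 5216 and 6329 at 1 week.

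Among compartments with at least 50 cells, bulge-like cells had the highest level of 4 members in all 4 libraries: Fos, Fosb, Jun and Atf3. Bulge-like cells match the stem cell niche of the hair follicle by Cd34, Postn, Sfrp1 and Krt15. Some smaller compartments were higher. Jun was 2058 in 22 endothelial-like cells of 1-day control and 3026 in 31 melanocyte-like cells of 1-week experimental. Fosb was 1195 in 19 endothelial-like cells of 1-day experimental and 1998 in 31 smooth muscle or pericyte-like cells of 1-week control. Fos, the Fos-family founder, was at 1614 CPM in 1-day control and 2315 in 1-day experimental bulge-like cells, and at 5216 and 6329 in the 1-week pair. In 1-day control the next compartments were melanocyte-like (1146) and fibroblast-like cells (1044), whose intervals overlapped each other, and the lowest was spinous-like (71.1), a range of 22.7-fold. Against the median of the other keratinocyte compartments, the bulge-like level of Fos was 10.2 times as high in 1-day control, 6.04 times in 1-day experimental, 5.5 times in 1-week control and 4.4 times in 1-week experimental cells. Atf3, the stress-induced member, was 7.36, 5.02, 3.9 and 4.6 times that median in the same order. Jun, the main partner of Fos, was 3.13, 4.03, 2.2 and 2.8 times as high. Jund, the steadily expressed Jun gene, was highest in bulge-like cells of both 1-day libraries (1944 and 1596) and of the 1-week experimental library (4839), and in 1-week control its bulge-like (4369) and fibroblast-like (4426) levels had overlapping intervals.

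The bulge-like cells were shallow, with a median of 2331 and 2260 UMIs at 1 day, and 69.5% and 62.7% of them lay close to the profile of the library's barcodes with the fewest UMIs. In those with at least 3000 UMIs, Fos was 1363 in 1-day control and 2133 in 1-day experimental cells, above every other keratinocyte compartment at that depth. The first rank over all compartments did not hold there in 1-day control, where the 53 fibroblast-like cells of that depth had Fos at 1386, with an interval overlapping the bulge-like one, and Jun at 1905 against 1724. The level differed among the 4 bulge-like clusters of 1-day control: Fos was 2042 in the cluster led by Krt24, 1674 in that with Lgr5, 1194 in that led by Krt15 and 999 in that led by Pthlh. Atf3 split differently in the same control clusters, at 1690, 1500, 1750 and 608. After each cell was thinned to 1000 UMIs, Fos was seen in 35.5% of 1-day control bulge-like cells, 43.1% of T cell-like cells and 4.48% of spinous-like cells (45.9%, 49.8% and 20.5% without thinning), so by the share of cells the T cell-like compartment stood first. No compartment that should lack Fos was available to give the share due to free RNA.

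Sequential layers of the interfollicular epidermis were low in Fos in 1-day control: 158 in basal-like, 71.1 in spinous-like and 106 in granular-like cells. Atf3 followed that order, with 245, 106 and 132. Jun was 575 in basal-like, 199 in spinous-like and 258 in granular-like cells. Junb and Jund, in contrast, were highest of the 3 layers in granular-like cells, at 584 and 809, against 380 and 344 in basal-like cells. In 1-week control, basal-like and spinous-like cells again differed, with Fos at 915 and 496, Jun at 1068 and 476 and Atf3 at 1009 and 545. A basal-like cluster of 496 cells led by Krt5 had Fos at 3494, Jun at 2032 and Atf3 at 2769. The other 1554 basal-like cells had Fos at 370, below the spinous-like level, but Jun at 864 and Atf3 at 637, above it. Among the named cells, only the order of Fos thus rested on the 496 cells. Control clusters led by Mt4 (861 cells), Krt77 (370) and Krt10 (120) were set aside for markers of several types. They had Fos at 1126, 749 and 882, Jun at 923, 593 and 824 and Atf3 at 1044, 772 and 638. The order of the layers with these cells counted was not computed.

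Fosl1, which encodes Fra-1, had an order of its own, with its highest control levels in basal-like cells and low levels in sebaceous-like cells. In 1-day control it was 501 in basal-like cells, above granular-like (403), cycling (395) and spinous-like cells (382), whose intervals overlapped in turn. Bulge-like cells ranked 5 of 14 with 325, 2 of their clusters having 389 and 388, and Fosl1 was 123 in sebaceous-like and 54.5 in Langerhans-like cells. In 1-week control it was 1186 in basal-like, 859 in spinous-like, 761 in cycling, 210 in bulge-like and 77.5 in sebaceous-like cells. Across compartments within a library, the correlation of its log2 level with that of Fos ran from -0.45 to 0.04 (11 to 16 compartments, which share libraries and differ in depth), whereas Fos and Fosb gave 0.89 to 0.97.

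The Krt8-led cells came from the experimental libraries (4677 cells against 9 in control at 1 day, 424 against 0 at 1 week) and held Krt8 at 1829 CPM at 1 day and 1359 at 1 week. All 6 Merkel cell markers searched (Krt20, Atoh1, Piezo2, Sox2, Snap25, Isl1) were at 0 in them, and Trp63 was at 58.7 and 44.8 CPM. Fosl1 was 585 in these cells at 1 day, with an interval overlapping those of experimental basal-like (590) and spinous-like cells (552), and below Slpi-led cells (646). At 1 week Fosl1 was 873 in Krt8-led cells, the highest of the 12 compartments of that library, ahead of granular-like cells (710). Fos was 327 in Krt8-led cells at 1 day, below granular-like (401) and above basal-like cells (241) of that library, and 1638 at 1 week. The 1-week Fos level was 1548 in the main Krt8-led cluster of 413 cells, the other 11 cells having 15068. Jund at 1 week was 3078 in Krt8-led cells, overlapping T cell-like cells (3066) and below bulge-like (4839), fibroblast-like (4391), granular-like (3961) and endothelial-like cells (3299). Fosl2 was the lowest of the 12 compartments there, at 162, with an interval overlapping the Krt6b-led one (177). For Junb the Krt8-led levels were 695 and 1193, for Jun 436 and 915, for Fosb 172 and 780, and for Atf3 332 and 1019, at 1 day and 1 week. Slpi-led cells (4814, 1-day experimental) had Fos at 474, Junb at 670 and Jun at 338.

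Junb, whose protein is a weaker activator than Jun, and Fosl2 were highest outside the keratinocytes. Junb in 1-day control was 2002 in fibroblast-like and 1332 in T cell-like cells, against 843 in bulge-like cells and 193 in Krt6b-led cells. At 1 week T cell-like cells led, with 3208 in control and 4755 in experimental. Fosl2 in 1-day control was 659 in fibroblast-like and 607 in T cell-like cells, which overlapped, then 357 in Langerhans-like cells, and 62.4 in spinous-like cells. At 1 week Fosl2 was 1086 and 1077 in T cell-like cells of control and experimental. T cell-like cells were at the other extreme for Jun at 1 week (187 and 299, the lowest compartment of both libraries) and for Atf3 (102 and 106).

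At 1 day, Fos, Fosb, Fosl2 and Junb were higher in experimental than in control keratinocytes, and no member was lower past the same limit. A gene was called when its ratio of CPM passed 1.5-fold (0.58 on the log2 scale) with at least 20 UMIs over both libraries; 21.7% of 14729 genes were called in this comparison, 13.1% higher and 8.57% lower (8.88% and 4.05% of the 5112 genes with a mean of at least 20 CPM), and the median log2 ratio of all genes was -0.00. Fos was 306 in control and 609 in experimental keratinocytes, a log2 ratio of 0.99 (counting interval 0.97 to 1.01). Fosl2 was 98.9 and 179 (0.86), Junb 415 and 639 (0.62) and Fosb 194 and 296 (0.61). Atf3 was 330 and 472 (0.51), Fosl1 374 and 471 (0.33), Jund 610 and 743 (0.28) and Jun 643 and 615 (-0.06). With 4 of 8 members called, the members' median log2 ratio was 0.56. The experimental sum holds 4814 Slpi-led cells and the control sum 9; without them Fos was 1.17, Fosb 0.77, Fosl2 0.87, Atf3 0.73 and Junb 0.58 on the log2 scale, so that Atf3 entered and Junb left the 4 called, while Jun was 0.27 and Fosl1 -0.016. With mitochondrial and ribosomal genes left out of the total, Fosb (0.52) and Junb (0.53) fell inside the limit, and by the mean of the CPM of single cells, in which shallow cells weigh as much as deep ones, Fos was 0.57, Fosb 0.17, Fosl2 0.72 and Junb 0.40.

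Taken compartment by compartment at 1 day, 37 of 112 member-by-compartment ratios were called, 34 higher and 3 lower in the experimental library, where 23.2% of all gene-by-compartment ratios were called (13.2% higher, 10% lower). In the 10 keratinocyte compartments the count was 26 higher and 0 lower of 80, beside 12.3% higher and 7.8% lower for all genes. Fos was above control in 14 of 14 compartments and called in 8, all keratinocyte ones, with log2 ratios from 0.13 in T cell-like to 1.94 in Krt6b-led cells. Not every cluster within a compartment went that way. Fos was 893 and 746 in the larger T cell-like cluster (513 and 268 cells), and 339 and 322 in a granular-like cluster led by Lce1m (14 and 285 cells).

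**Figure D2:**
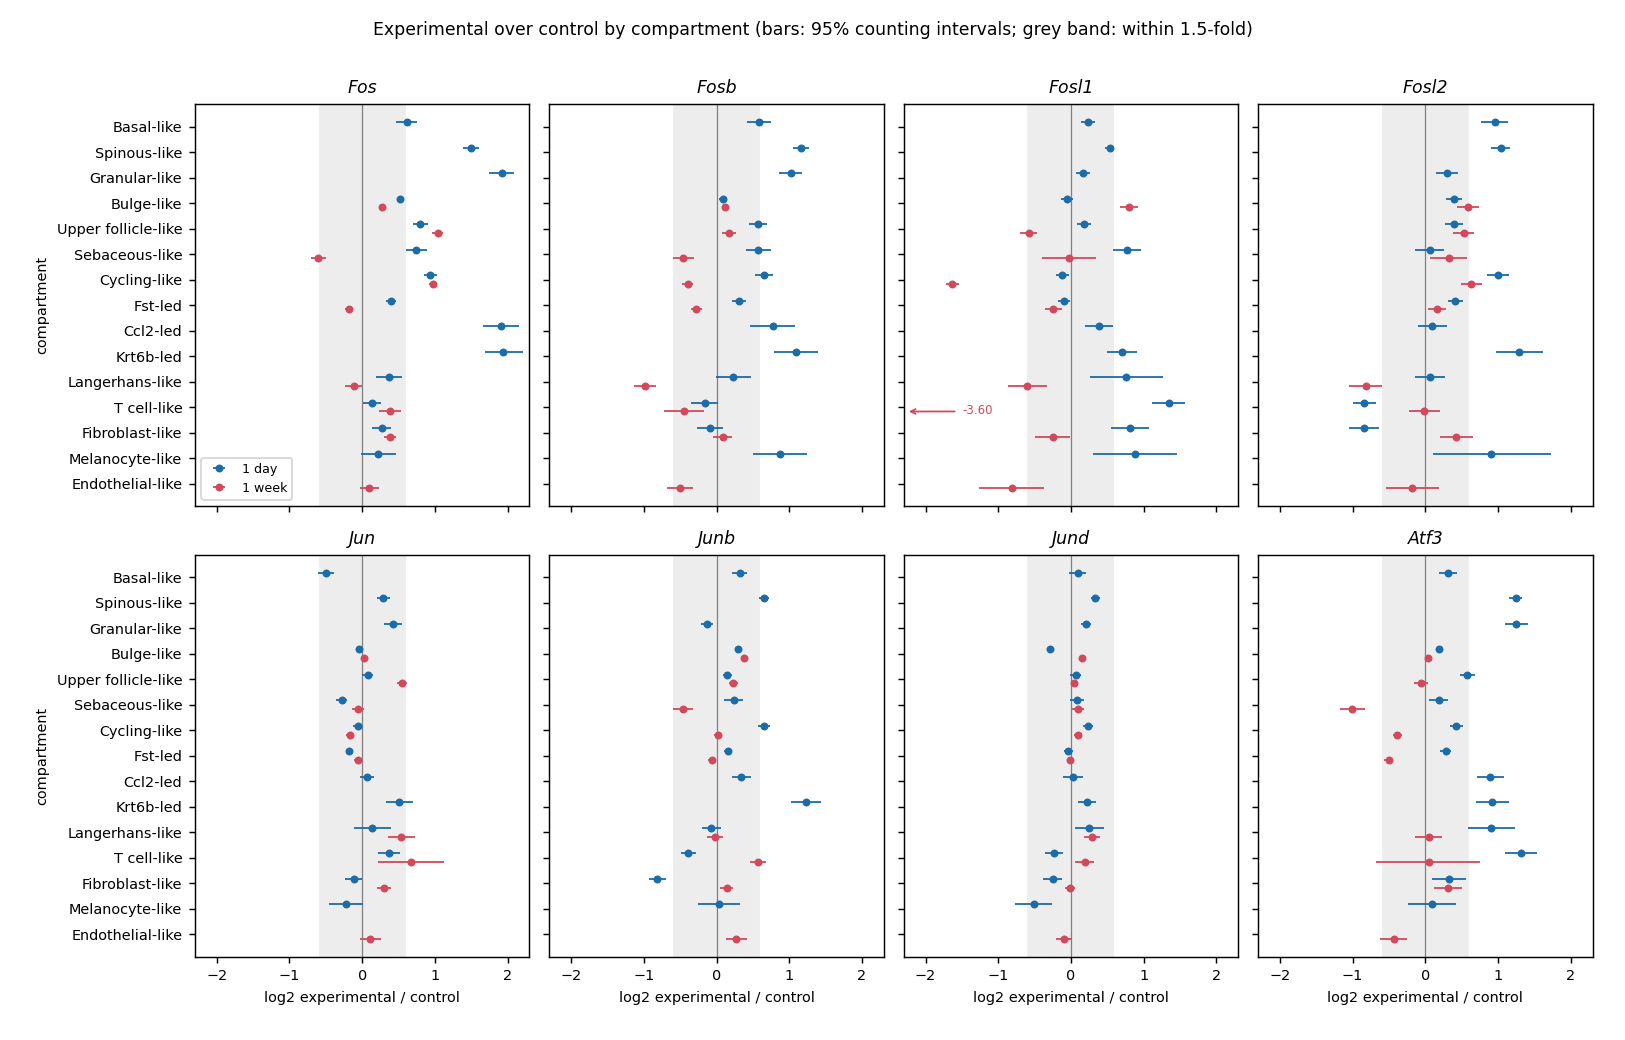
Log2 ratio of experimental over control (x axis) for each gene (panels) and compartment (y axis) at 1 day (blue) and 1 week (red); bars are exact 95% counting intervals, the grey band spans 1.5-fold either way, and an arrow marks a ratio beyond the axis. Blue Fos points lie right of 0 in all 14 compartments, from 0.13 to 1.94, while Jun and Jund points mostly stay inside the band.

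For Fos, Fosb and Atf3 the 1-day ratio was larger in spinous-like and granular-like cells than in basal-like or bulge-like cells, whereas for Fosl2 and Junb it was smallest of the 3 layers in granular-like cells. Fos was 158 and 241 in basal-like cells (log2 0.61; 134 and 167, or 0.32, in cells of at least 3000 UMIs), 71.1 and 201 in spinous-like (counting interval 1.39 to 1.61) and 106 and 401 in granular-like cells (1.92). Atf3 was 245 and 305 (0.31), 106 and 251 (1.24), and 132 and 314 (1.25) in the same layers. Fosb was 126 and 188 (0.58, just inside the limit), 80.5 and 180 (1.16), and 140 and 284 (1.02). Fosl2 was 76.7 and 148 (0.95) in basal-like, 62.4 and 128 (1.04) in spinous-like and 155 and 190 (0.30) in granular-like cells. Junb was called in spinous-like cells (231 and 364, 0.65) and was 380 and 474 (0.32) in basal-like and 584 and 535 (-0.13) in granular-like cells. Jun moved the other way in basal-like cells, 575 and 408 (-0.49), and was 199 and 244 (0.29) in spinous-like cells. Whether the sizes differ between layers has no test with 1 library per group. Close to the profile of the library's barcodes with the fewest UMIs were 12.1% of control and 41.6% of experimental basal-like cells. That share was 3.63% and 27.9% in spinous-like, 4.09% and 30.2% in granular-like and 69.5% and 62.7% in bulge-like cells. Krt8 was 0.089 and 54.9, 0.077 and 61.6, and 0 and 149 CPM in the 3 layers. The part of either in the ratios was not tested.

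In bulge-like cells Fos was 1614 and 2315 (0.52), Jund 1944 and 1596 (-0.28) and Jun 1801 and 1755 (-0.04). There 0 of the 8 members were called, beside 12.2% of all genes and 3.9% of those with a mean of at least 20 CPM. The latter share was 4.21% in upper follicle-like, 14.4% in sebaceous-like, 9.23% in cycling and 28.8% in Krt6b-led cells. In bulge-like cells of at least 3000 UMIs, Fos was 1363 and 2133 (0.65), past the limit. In upper follicle-like cells Fos was 201 and 350 (0.80) and the other 7 members were not called (all genes 13.7%). In those of at least 3000 UMIs, Fosb was 118 and 210 (0.83) and Fos 187 and 332 (0.83), both past the limit. Of the 2 upper follicle-like clusters, that led by Krt79 had Fos at 174 and 230, and that led by Cst6 at 236 and 497. In sebaceous-like cells Fos was 228 and 383 (0.75) and Fosl1 123 and 210 (0.78), the 2 members called (all genes 23%). Of the 2 sebaceous-like clusters, the first held 421 control and 253 experimental cells and had Fos at 237 and 436 and Fosl1 at 150 and 178, and the second held 129 and 268 cells and had Fos at 208 and 328 and Fosl1 at 56.6 and 244. Cycling cells had 4 called members (all genes 19%), Fosl2 at 89 and 178 (1.00), Fos at 253 and 483 (0.94), Junb at 370 and 583 (0.65) and Fosb at 154 and 243 (0.65). In these cycling cells Krt8 was 1.82 CPM in control and 973 in experimental, and Trp63 was 420 and 121; the part of this difference in the members' values was not tested. Krt6b-led cells, which carry a keratin of wounded and follicle epithelium, had 6 called members (all genes 35.4%), among them Fos at 111 and 427 (1.94), Fosl2 at 78.2 and 191 (1.29) and Junb at 193 and 454 (1.23). In Krt6b-led cells Krt8 was 0 CPM in control and 425 in experimental, Trp63 was 280 and 49.4, and median depth was 9212 and 5361 UMIs. The part of these differences in the members' values was not tested. Ccl2-led cells had Fos at 91.1 and 343 (1.91) and Atf3 at 199 and 370 (0.89).

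The 1-day difference was larger in deeper cells and was, for Fos, Fosb and Junb, not seen in the sum of shallow ones. Of keratinocytes, 26.5% of control and 37.1% of experimental cells had under 3000 UMIs, and bulge-like cells made up 55.2% and 31.1% of those. In cells of at least 3000 UMIs, Fos was 200 in control and 494 in experimental keratinocytes (log2 1.31), and it was above control in 10 of 10 keratinocyte compartments. In cells under 3000 UMIs, Fos was 1245 and 1158 (-0.10), Fosb -0.49, Junb -0.04, Jun -0.60, Jund -0.57 and Atf3 -0.38 on the log2 scale, while Fosl2 stayed positive at 0.38 and Fosl1 at 0.20. Within compartments, shallow cells had Fos at 620 and 248 in spinous-like, 1214 and 603 in cycling and 526 and 419 in basal-like cells, but at 1846 and 2495 in bulge-like cells, and Fos was above control in 6 of 9 compartments. Over the 10 keratinocyte compartments, 27 of 80 member ratios were called higher and 1 lower in deeper cells (all genes 12.4% and 8.52%), against 6 higher and 15 lower in shallow cells (13.9% and 13.3%), Krt6b-led cells included although under 20 of their control cells were shallow. The part of cell depth in the difference between the libraries was not tested.

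**Figure D3:**
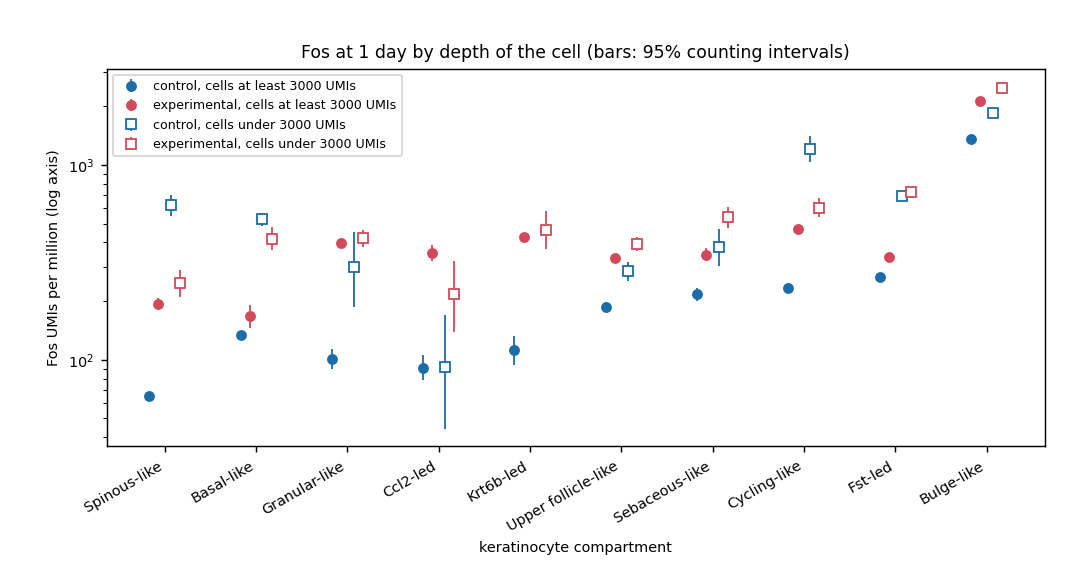
Fos in CPM (log axis) at 1 day in the 10 keratinocyte compartments (x axis), for control (blue) and experimental (red) cells with at least 3000 UMIs (filled circles) or under 3000 UMIs (open squares); bars are 95% counting intervals, and groups of under 20 cells are not drawn. Filled red points lie above filled blue ones in all 10 compartments, whereas the open points are reversed in spinous-like (620 control, 248 experimental), basal-like and cycling cells.

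Each 1-day library carried counts of 4 hashtags, 3 of them in use; the labels do not say what they mark, and they are treated as parts of 1 library, not as replicates. No clear hashtag was found on 30.8% of control and 53.4% of experimental cells. By hashtag, Fos in keratinocytes was 221, 139 and 155 in control and 444, 510 and 392 in experimental, without overlap. Fosb, Fosl1, Fosl2, Junb and Atf3 also did not overlap, being higher in the experimental library, whereas Jun and Jund overlapped. Of all 14729 genes, 33.9% did not overlap between the hashtags of the libraries (16.6% higher, 17.2% lower), beside 6 of 8 members higher. The keratinocyte sums hold 9 control and 4814 experimental Slpi-led cells, and without them the log2 ratio of Fosl1 was -0.016. Among keratinocyte compartments, the Fosl1 values by hashtag did not overlap in spinous-like cells. They overlapped in basal-like, granular-like, bulge-like, upper follicle-like, sebaceous-like, cycling, Fst-led and Ccl2-led cells. In keratinocytes without a clear hashtag, Fos was 787 in control and 833 in experimental (log2 0.08), Fosb 435 and 371 (-0.23) and Fosl2 106 and 173 (0.70). Those cells were shallower, with median depths of 2853 and 2921 UMIs, and 3281 of the 4084 bulge-like control cells were among them.

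**Figure D4:**
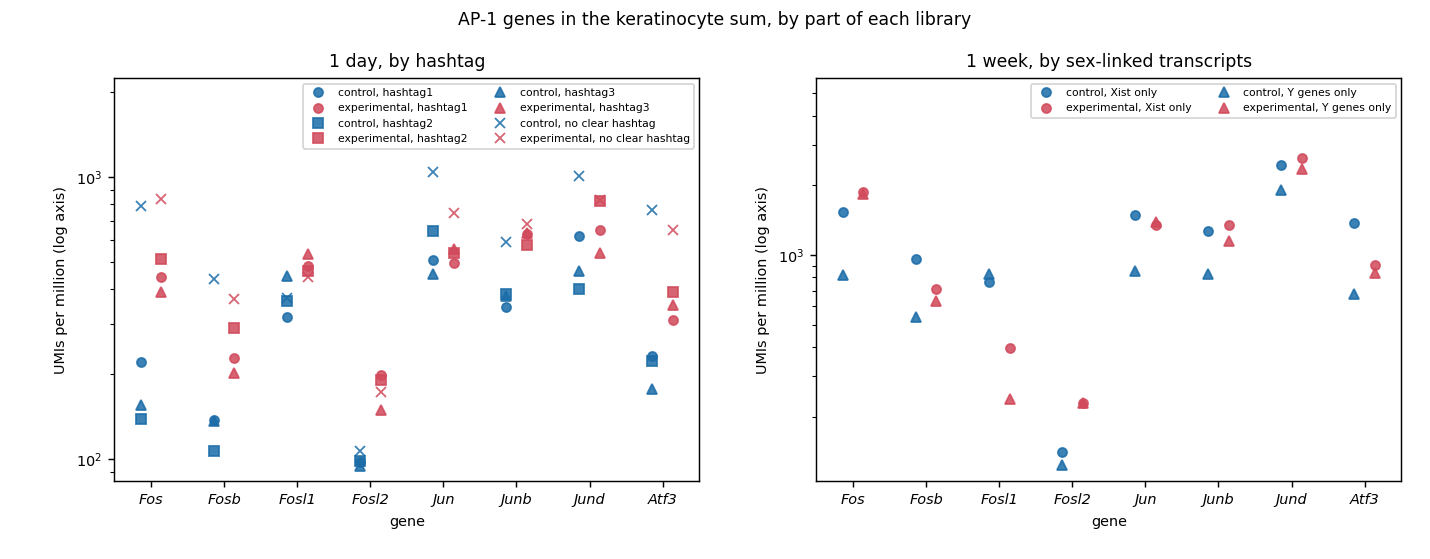
CPM (log axis) of the 8 genes in the keratinocyte sum of control (blue) and experimental (red) libraries, split by hashtag at 1 day (left) and by cells with Xist or with Y-linked transcripts at 1 week (right). At 1 day the 3 hashtag values of Fos run from 139 to 221 in control and from 392 to 510 in experimental, with crosses for cells without a clear hashtag at 787 and 833; at 1 week the control Xist and Y values of Fos are 1533 and 818.

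Outside the keratinocytes at 1 day, 8 of 32 ratios were higher and 3 lower, beside 16.8% and 18.8% for all genes in these 4 compartments. Fosl1 was higher in all 4: 54.5 and 92.3 in Langerhans-like (log2 0.76), 166 and 420 in T cell-like (1.34), 222 and 390 in fibroblast-like (0.81) and 165 and 303 in melanocyte-like cells (0.87). In cells of at least 3000 UMIs it was 0.63, 0.48, 0.48 and 0.33 in that order, so only the Langerhans-like ratio was past the limit. Fosl2 was lower in 2 of the 4 compartments, at 607 and 340 in T cell-like (-0.84) and 659 and 366 in fibroblast-like cells (-0.85), but it was 357 and 374 in Langerhans-like and 84.5 and 158 in melanocyte-like cells (0.91, called higher). Junb was 2002 and 1139 in fibroblast-like cells (-0.81). In T cell-like cells of at least 3000 UMIs Fosl2 was 289 and 287 (-0.012), whereas in fibroblast-like cells of that depth Fosl2 (-0.84) and Junb (-0.90) were as before. The control T cell-like cells of that depth had Fosl1 at 336 and Jun at 986. Over all depths Fosl1 was 166 in control, and Jun was 573 in the larger and 158 in the smaller T cell-like cluster. Keratin levels at that depth were not computed. Keratinocyte transcripts moved with the ratios over all depths. The summed level of Krt5, Krt14, Krt1 and Krt10 was 4514 and 9975 in T cell-like and 3675 and 8375 in fibroblast-like cells, Krt8 was 0 in control and 443 and 451 in experimental cells of these compartments, and median depth was 1242 and 2807, and 1131 and 3201 UMIs. In Langerhans-like and melanocyte-like cells that keratin sum was not higher (1763 and 1405, 9524 and 7134), but Krt8 went from 0 to 99.5 and 516. The part of carried-over keratinocyte RNA in these ratios was not tested. Fos itself was 737 and 807 (0.13) in T cell-like, 1044 and 1260 (0.27) in fibroblast-like and 461 and 595 (0.37) in Langerhans-like cells. The T cell-like clusters went opposite ways, with Fos at 893 and 746 in the larger (513 and 268 cells) and 246 and 940 in the smaller (240 and 138). In cells of at least 3000 UMIs Fos was 372 and 688 (0.89) in T cell-like, 896 and 1514 (0.76) in melanocyte-like and 1386 and 1290 (-0.10) in fibroblast-like cells.

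At 1 week, Fos and Fosl2 were higher and Fosl1 lower in experimental than in control keratinocytes, when 34.4% of 14158 genes were called (23.2% higher, 11.2% lower; 13.6% and 8.57% of the 6030 genes with a mean of at least 20 CPM) and the median log2 ratio of all genes was 0.13. Fos was 1237 and 2078 (0.75, counting interval 0.73 to 0.77), Fosl2 131 and 231 (0.81) and Fosl1 782 and 297 (-1.40). Jun was 1147 and 1436 (0.32), Junb 1033 and 1291 (0.32), Jund 2183 and 2585 (0.24), Fosb 737 and 735 (-0.00) and Atf3 1020 and 969 (-0.07). Taken relative to that median, Fos and Fosl2 were still past the limit and so was Fosl1. Of 5904 control keratinocytes, 2050 were basal-like and 1141 spinous-like, the compartments with the most Fosl1, against 17 and 9 of 2969 in the experimental library. The same sums held 0 control and 306 experimental Krt6b-led cells, the latter with Fosl1 at 211 and Fos at 915. They also held 28 and 179 granular-like cells, the latter with Fosl1 at 710 and Fos at 1465. The unweighted mean over the 5 compared keratinocyte compartments was -0.34 for Fosl1 and 0.30 for Fos, past the limit for no member.

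By compartment at 1 week, 14 of 72 ratios were called, 6 higher and 8 lower, beside 28.2% for all genes (16.3% higher, 11.9% lower), and by kind 5 higher and 3 lower of 40 in keratinocyte compartments (all genes 15.5% and 11.2%) and 1 higher and 5 lower of 32 in the others (18% and 13.2%). Fosl1 was 761 and 245 in cycling cells (-1.63), 345 and 230 in upper follicle-like (-0.58), 356 and 301 in Fst-led (-0.24) and 77.5 and 76.1 in sebaceous-like cells (-0.03), but 210 and 364 in bulge-like cells (0.80). The direction within compartments differed by depth: in cells of at least 3000 UMIs Fosl1 was lower in 4 of 5 keratinocyte compartments (3 called, sebaceous-like -0.91), and in cells under 3000 UMIs higher in 4 of 4 (3 called). Of the 2 cycling clusters, the first held 161 control and 6 experimental cells, with Fosl1 at 1188 and 593, and the second 110 and 330, with Fosl1 at 263 and 241. Krt8 was 9.39 and 443 CPM over all cycling cells. Fos was 591 and 1216 in upper follicle-like (1.04), 978 and 1919 in cycling (0.97), 5216 and 6329 in bulge-like (0.28), 1621 and 1432 in Fst-led (-0.18) and 1241 and 816 in sebaceous-like cells (-0.60). Atf3 was 493 and 246 in sebaceous-like cells (counting interval -1.18 to -0.83), whose 3 clusters held 165 and 65, 8 and 205, and 0 and 98 cells. Outside the keratinocytes, Langerhans-like cells had Fosb at 1352 and 683 (-0.99), Fosl2 at 563 and 319 (-0.82) and Fosl1 at 391 and 258 (-0.60). By sex, Langerhans-like Fosl1 was 277 and 454 (0.71) in Xist-bearing cells and 503 and 121 (-2.05) in Y-bearing cells. Endothelial-like cells had Fosl1 at 283 and 161 (-0.81). The keratin sum was also lower, at 9863 and 6359 in Langerhans-like and 6347 and 2288 in endothelial-like cells, in which Trp63 was 150 and 24.4; the part of carried-over keratinocyte RNA was not tested. T cell-like cells had Jun at 187 and 299 (0.67), Junb at 3208 and 4755 (0.57, inside the limit) and Fosl1 at 91.4 and 7.56 (-3.60, with a counting interval of -6.69 to -1.66).

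Within the 1-week control library, Fos in keratinocytes was 1.87-fold higher in Xist-bearing than in Y-bearing cells, beside 1.68-fold between the libraries. That ratio within the control library was 1.18 in upper follicle-like cells, 0.627 in fibroblast-like and 0.449 in Langerhans-like cells. In keratinocytes with Xist and no Y-linked UMI (2097 control and 655 experimental cells), Fos was 1533 and 1880 (0.29), Jun 1489 and 1355 (-0.14) and Atf3 1369 and 905 (-0.60). In those with Y-linked UMIs and no Xist (2251 and 1212 cells), Fos was 818 and 1836 (1.17), Jun 857 and 1391 (0.70) and Atf3 679 and 837 (0.30). The experimental levels of Fos were close and the control levels apart. Fosl1 was 766 and 395 (-0.95) in the first and 828 and 239 (-1.79) in the second, and Fosl2 141 and 230 (0.71) and 123 and 229 (0.89), so these 2 members were called in the same direction in both sums. The part of the few experimental basal-like and spinous-like cells in these sums was not tested. By compartment, Fosl1 was higher in bulge-like cells of both sexes (0.53 and 0.87). It was lower in cycling (-1.39 and -1.77) and upper follicle-like cells (-0.60 and -0.83), and inside the limit in sebaceous-like and Fst-led cells. Fosl2 passed the limit in both sexes in no keratinocyte compartment. In bulge-like cells Fos was 7365 and 7173 (-0.04) in Xist-bearing and 3615 and 5350 (0.57) in Y-bearing cells. The number of animals behind the cells of each sex is not given, and sex, animal and genotype cannot be told apart here. Cells were sorted by single UMIs of these transcripts, so the split can also depend on depth. Neither transcript was seen in 46.9% of control and 61.1% of experimental cells. Over all control cells, 6026 had Xist only and 3533 Y-linked transcripts only, against 2097 and 2251 in keratinocytes. The part of depth in the values by sex was not tested.

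Other immediate early genes were sought by name, of which 24 were found. Cyr61 and Ctgf were not found under those names, and other symbols for them were not searched. Of the 24, 13 were higher and 0 lower in 1-day experimental keratinocytes, with a median log2 ratio of 0.66. At 1 week 6 were higher and 1 lower, with a median of 0.43. Counts of these and the next lists stand beside 13.1% of all genes higher and 8.57% lower at 1 day and 23.2% and 11.2% at 1 week, with medians of -0.00 and 0.13. The heat shock and other leucine zipper counts were near or below those shares, and so were the upstream genes at 1 day and the immediate early genes at 1 week. Of genes with a mean of at least 20 CPM, 8.88% were higher and 4.05% lower at 1 day, and 13.6% and 8.57% at 1 week. The 6 of 24 immediate early and 3 of 14 heat shock genes higher at 1 week stood above that 13.6%. The lists were not limited to genes of that level. The 4 immediate early genes that passed at both times were Klf2, a zinc finger factor (log2 0.91 and 0.95), Klf10, a TGF-β-induced factor (0.85 and 1.03), Egr2 (1.18 and 0.85) and Rhob, a small GTPase (0.70 and 1.06). Egr1, which shares the serum response with Fos, was 273 and 517 CPM at 1 day (0.92) and 792 and 1091 at 1 week (0.46). Among 14 heat shock genes, often raised with AP-1 during cell isolation, 1 was higher at 1 day (Hspb1, 4296 and 6656 CPM, 0.63), and 3 were higher and 1 lower at 1 week; their summed level was 10494 and 13082 at 1 day and 11581 and 13528 at 1 week, and their part in the AP-1 ratios was not tested. Of 14 tested genes of other basic leucine zipper factors, 1 was higher (Maff) and 0 lower at 1 day, and 2 were higher (Jdp2, Atf5) and 2 lower (Atf4, Crem) at 1 week. Of 19 kinases, phosphatases and factors acting upstream of AP-1, 2 were higher at 1 day and 6 at 1 week with none lower, Mapk14 (p38α) being in both (0.61 and 0.94). Mkl1 and Mkl2 of that list were not found under those names.

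Genes with known AP-1 sites had wider ratios than the members themselves. At 1 day 13 of 22 were higher and 4 lower, and at 1 week 12 of 20 were higher and 2 lower, with medians of 1.00 and 1.04 (all genes 13.1% and 8.57% at 1 day, 23.2% and 11.2% at 1 week). S100a8 and S100a9, subunits of the alarmin calprotectin, were at 1.38 and 18.9 and at 2.75 and 19.6 CPM at 1 day, and at 0.893 and 57.5 and at 1.66 and 112.9 at 1 week. Lor, which encodes the cornified envelope protein loricrin, was 232 and 1326 at 1 day and 474 and 5650 at 1 week, in sums that held 367 and 1450, and 28 and 179, granular-like cells. Mmp3, a secreted protease, was lower, at 51.8 and 10.9 and at 14.8 and 0.641. Timp1, an inhibitor of such proteases, was at 0.791 and 5.22 and at 0.24 and 35.3. These genes have many other regulators, and nothing here ties their levels to AP-1.

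Genes most like each member across compartments were sought among 4916 genes by the lowest of the 4 within-library correlations of log2 level (14, 16, 11 and 12 compartments). For Fos these were Dkk3 (0.81), Ier2 (0.79) and Arl3 (0.75), and for Atf3 Sfrp1 (0.79), Egr1 (0.75) and Cd151 (0.75). For Jun they included Ltbp3 and Serpinh1 (0.85 each), for Jund they were Ecm1 (0.73), Asah1 (0.69) and Pcmtd1 (0.66), and for Fosb Gm26532 (0.78), Arnt (0.76) and Zfp36 (0.74). Fosl1 was most like Tmem43, Dhx32 and Sowahc (0.83 each), Fosl2 like Smad7 (0.78), Akap13 (0.77) and Nup98 (0.76), and Junb like Smad7 (0.83), Gm26532 (0.82) and Kmt2e (0.80). Among pairs of members, the value was positive in all 4 libraries for several, among them Fosb and Jund (0.74 to 0.93), Fos and Jund (0.76 to 0.84), Fos and Junb (0.74 to 0.81), Jun and Atf3 (0.73 to 0.85) and Fosl2 and Junb (0.69 to 0.82). It was negative in all 4 for Fosl1 with Fosl2 (-0.67 to -0.45), for Fosl1 with Junb (-0.32 to -0.21) and for Fosl2 with Atf3 (-0.56 to -0.063). Compartments of 1 library share its reads and its free RNA, so these values are descriptions.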

How the data were processed

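Single-cell RNA was counted in 4 libraries, 1 per group. Per the file headers, Cell Ranger 5.0.1 made the deposited matrices, whose values are raw UMI counts of genes by barcode; the submitters' processing notes also name Seurat and the build mm10. Barcodes needed 500 UMIs, 300 genes and a mitochondrial share of no more than 15%. The automatic threshold of the doublet caller marked nearly none (at most 0.0402%), so the highest-scoring 26.8%, 25.8%, 20.0% and 14.7% were removed, a rate of 0.8% per 1000 barcodes. This left 22298, 23651, 19879 and 15626 cells. Each time point was clustered with scanpy 1.11.5 and leidenalg 0.10.2 (2000 variable genes without the members, 30 components, resolution 1), and clusters were named from markers; Fst-led, Ccl2-led, Krt6b-led, Slpi-led and Krt8-led clusters had no fitting marker set. Clusters with markers of several types were set aside (108 control and 2346 experimental cells at 1 day, 1542 and 391 at 1 week), as were low-UMI clusters at 1 week (11478 and 11277 cells). UMIs were summed per library and compartment and scaled by the total of all genes (CPM); ratios have exact conditional binomial 95% intervals. The ratio code was tested on simulated counts. The members, gene lists and marker limits were chosen with earlier results of these data known, and the limits for naming clusters were set after the data were seen. Listed genes were named when past 1.5-fold in the same direction at both time points with at least 50 UMIs, up to 5 per list; Egr1, Hspb1, Maff and others named beside a small count were chosen after their values were seen. Alternatives covered scaling (edgeR 4.0.16 TMM factors, Python 3.11.15, R 4.3.3), filters, doublets, resolution, depth, hashtag and sex. The 4th hashtag was not used. A gene among those most like Jun is not reported here.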

Additional observations from a re-analysis of the deposited data

Results flagged for a closer look

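Between time points, 3 members had opposite directions in the keratinocyte sum, with counting intervals on opposite sides of 0. The log2 ratios at 1 day and 1 week were 0.33 and -1.40 for Fosl1, -0.063 and 0.32 for Jun, and 0.51 and -0.074 for Atf3. Without the Slpi-led cells, the 1-day ratios were -0.016 for Fosl1 and 0.27 for Jun, the same signs as at 1 week, while Atf3 stayed positive. By the unweighted mean over compartments, the 1-week ratio of Fosl1 was -0.34. The difference between time points was not tested, and tag kit, animals and time cannot be told apart.

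Between the sexes at 1 week, 3 members had opposite directions in keratinocytes. The log2 ratios in Xist-bearing and Y-bearing cells were -0.42 and 0.22 for Fosb, -0.14 and 0.70 for Jun, and -0.60 and 0.30 for Atf3, and this difference was not tested either.

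The hashtag counts were not part of the gene expression measurement and served only to split the 1-day cells. A clear hashtag was on 23.6%, 23.0% and 22.7% of cells in the 1-day control library for the 3 hashtags in use, and on 15.8%, 15.8% and 15.1% in the 1-day experimental library.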

How the results depend on the processing

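Of 240 alternative values of the 8 members in keratinocytes, 209 kept their call, and 52 of 69 alternative counts were within 1.5 times the reported one; settings by sex, hashtag, depth, mixed or low-UMI clusters, Slpi-led cells and the mean over compartments were chosen after seeing the data. Of members past the limit, 5 values changed direction: in cells under 3000 UMIs at 1 day for Fos (-0.10), Fosb (-0.49) and Junb (-0.040) and at 1 week for Fos (-0.29), and in cells without a clear hashtag for Fosb (-0.23). Members inside the limit changed sign in further settings, such as Jund (-0.57) and Atf3 (-0.38) at 1 day and Jun (-0.28) and Jund (-0.24) at 1 week in cells under 3000 UMIs. The 4 members called at 1 day became 2 when mitochondrial and ribosomal genes were left out of the total, 2 over all cells, 1 by the mean of the CPM per cell, 1 (Jun, lower) in cells under 3000 UMIs, 1 without a clear hashtag and 0 at 2-fold. The 3 called at 1 week became 1 at 2-fold and 0 both in cells under 3000 UMIs and by the unweighted mean over compartments. The 37 ratios called at 1 day became 15 at 2-fold, and in cells under 3000 UMIs they were 37 again, but 15 higher and 22 lower. The 14 at 1 week became 4 at 2-fold, 25 in Y-bearing cells and 27 in cells under 3000 UMIs. Over the keratinocyte compartments alone at that depth, 9 of 37 member ratios were higher and 7 lower, beside 42.2% of all gene-by-compartment pairs past the limit. The share of all genes was not computed at 2-fold, in Y-bearing cells, or over all compared compartments in cells under 3000 UMIs. The 13 other immediate early genes at 1 day became 7 by the mean of the CPM per cell, the 7 at 1 week became 11 by that mean and 12 in Y-bearing cells, and the 1 heat shock gene at 1 day became 2 over all cells. The cause was not tested. No paired analysis was possible because each group has 1 library. Depth limits compartments with few UMIs, such as Fosl1 in T cell-like cells at 1 week.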

Other observations

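Cells set aside from the compartments also had AP-1 values. The low-UMI clusters of the 1-week libraries (11478 control and 11277 experimental cells) had Fos at 1163 and 2033 CPM, Fosl1 at 792 and 378 and Atf3 at 956 and 1126. Of these barcodes, 94.5% and 96.4% lay close to the profile of the library's barcodes with the fewest UMIs. Clusters with markers of several types at 1 week had Fos at 916 and 2114, Junb at 963 and 1770 and Fosl1 at 832 and 370. These sums held different clusters in the 2 libraries. Of the 391 experimental cells, 384 were in a cluster led by Cstdc5 with 0 control cells. Of the 1542 control cells, 861 were in a cluster led by Mt4 with 3 experimental cells. Smooth muscle or pericyte-like cells, under 50 in each 1-week library (31 control and 41 experimental), had Junb at 2879 and 3864 and Fos at 2491 and 4127. Granular-like cells of the 1-week experimental library (179 cells, with 28 in control) had Jund at 3961 and Junb at 1767.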
